A study of Mus musculus with 5 samples.

Results

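RNase MRP and RNase P are related enzymes, each built around a small RNA that forms its catalytic core. The intervals examined here are those of the deposited table that carry the gene name Rmrp, Rpph1 or Rprl3. There are 3 of them among 673 intervals, 1 for each name. The names were chosen with their reads already known, so the reads of the immunoprecipitation (IP) and of its control are given as a description and were not tested.

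The data come from RNA immunoprecipitation, in which RNA that is bound to a protein is recovered through an antibody against that protein and then sequenced. The cells were osteoblasts from the calvaria of FVB mice aged 5 to 7 days that are homozygous for a piggyBac insertion in Samd4 (Samd4PB/PB), immortalized with SV40 and infected with a lentivirus that expresses Flag-tagged SAMD4. SAMD4 is the mammalian relative of Drosophila Smaug, an RNA-binding repressor of translation. Libraries were made from 2 anti-Flag IPs, 2 IgG controls and 1 input, all from cells that carry the transgene, so that no library of cells without Flag-SAMD4 is part of the comparison, and the sources do not say whether the cells are a single clone. The antibody field of the IgG libraries reads Flag with other catalogue numbers, whereas their titles and the paper name IgG, and they were taken as IgG. The table gives 1 number of IP reads and 1 number of IgG reads for each interval, so replicates cannot be compared, and the input was not analysed here. Intervals of confidence cover counting error only.

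RNase MRP takes part in the maturation of ribosomal RNA, and RNase P removes the leader from the 5′ end of precursor transfer RNAs. Both enzymes are complexes of 1 RNA with proteins, most of which they share, and both RNAs are made by RNA polymerase III and carry no poly(A) tail. In humans, mutations of RMRP cause cartilage-hair hypoplasia, a disorder with short-limbed growth of the skeleton. Rmrp is the RNA of mouse RNase MRP and Rpph1 that of mouse RNase P. Rprl3 is annotated by RefSeq as a further RNase P RNA gene, one of a small set of Rpph1-like sequences in the mouse genome.

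An interval of the table had a median length of 309 bases and a median of 74 reads in the IP and 6 in the IgG. Listed reads came to 3260616 in the IP and 567264 in the IgG, and these sums are not library depths, which the sources used here do not give. All ratios below are therefore ratios of reads, uncorrected for depth. The deposited intervals are labelled as enriched, and every listed interval had more reads in the IP, with a lowest ratio of 2.47. Shares, medians and ranks below are thus among intervals selected for enrichment, not among unselected ones. Of 9 osteoblast marker genes, Col1a1 was named in the table, with 3 intervals, but a gene that is not named may still be expressed. Samd4 itself was named at 3 intervals, with 79 to 124 IP reads and ratios of 3.35 to 5.80.

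The Rmrp interval covered the whole of its RNA, whereas those of Rpph1 and Rprl3 covered an inner stretch of theirs. Rmrp lies on the minus strand of chromosome 4, and its interval runs from 43505654 to 43505940 of the mm9 build, 287 bases. The RefSeq transcript NR_001460 has a single exon of 275 bases, and all of them were inside the interval. A further 9 bases lay before its 5′ end and 3 bases past its 3′ end. In all, 12 of the 287 bases lay outside the annotated RNA.

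The Rpph1 interval lies on chromosome 14 from 51427250 to 51427402 (mm9) and is 153 bases long. Rpph1 is on the minus strand, with a single exon of 325 bases in the transcript NR_002142. All 153 bases of the interval were inside this exon, from base 45 to base 197 of the RNA counted from its 5′ end, and 0 bases lay outside. The interval thus held 47.1% of the RNA, and left out 44 bases at the 5′ end and 128 bases at the 3′ end.

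The Rprl3 interval was the shortest of the set. It lies on chromosome 8 from 3803219 to 3803354 (mm9), 136 bases, with 0 bases outside the 237 bases of NR_024198, a single exon on the minus strand. It ran from base 8 to base 143 and held 57.4% of that RNA, leaving out 7 bases at the 5′ end and 94 at the 3′ end. On these RefSeq transcripts of the RNase P RNA and its relative the uncovered stretch was thus longer on the 3′ side than on the 5′ side. The Ensembl transcripts there had the same order. UCSC transcripts there had the reverse, with 335 bases (5′) and 123 (3′) at Rprl3, and 128 and 44 on the plus strand at Rpph1. Positions were counted in each RNA on its own, and no alignment between them was made.

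**Figure D1:**
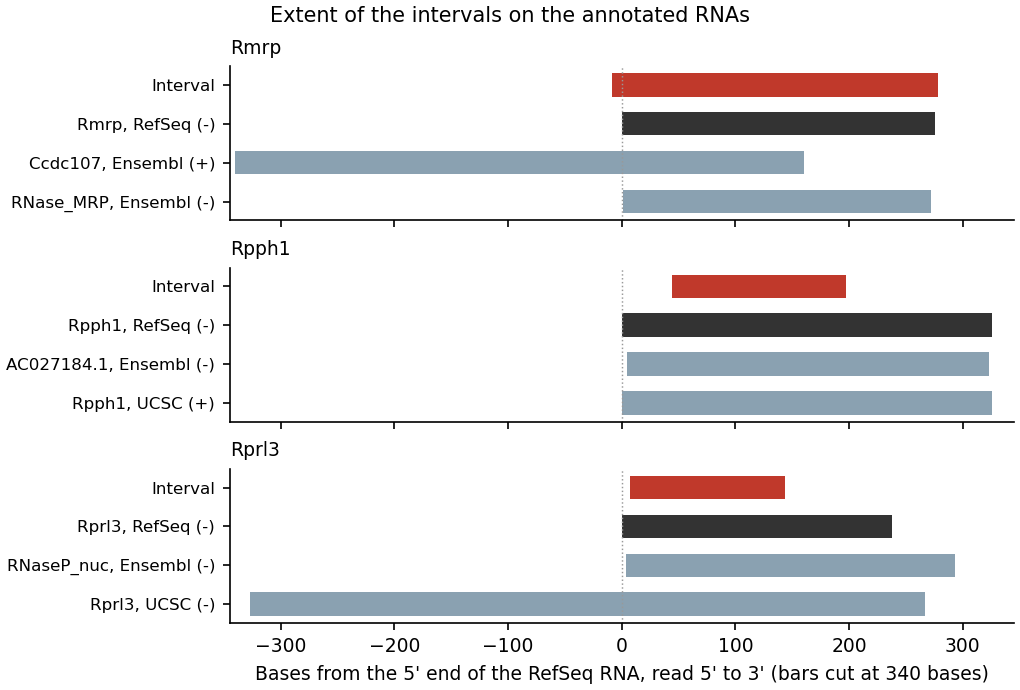
Extent of the Rmrp, Rpph1 and Rprl3 intervals (red) on the RefSeq RNA (black) and on the other transcripts that the table names there (grey), in bases from the 5′ end of the RefSeq RNA, with the strand of each transcript in brackets and bars cut at 340 bases. The Rmrp interval spans all 275 bases of its RNA, and the others span bases 45 to 197 of Rpph1 and bases 8 to 143 of Rprl3.

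Each interval also carried another name, and in 2 of the 3 cases the annotation includes a transcript of the opposite strand. At Rmrp the table names RNase_MRP, an Ensembl transcript of 271 bases that lies wholly inside the interval, and Ccdc107, a protein-coding gene that neighbours Rmrp on the plus strand. The Ccdc107 transcript ENSMUST00000143073 shared 169 bases with the interval, of which 124 were exon and 45 were intron, and its first base lay inside Rmrp. The deposited reads carry no strand, so reads of Rmrp and of this transcript cannot be told apart. For Ccdc107 no other interval was listed.

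At Rpph1 the further name was AC027184.1, an Ensembl transcript of 319 bases on the same strand, with all 153 bases of the interval inside it. A UCSC transcript (uc007tlp.1) carries the name Rpph1 on the plus strand, and the first base of its exon in this region, 51427250, was also the first base of the interval. Parp2, which encodes a poly(ADP-ribose) polymerase and lies next to Rpph1 in the RefSeq annotation, was not named in the table. At Rprl3 the further name was RNaseP_nuc, an Ensembl transcript of 290 bases of which the interval held 136. A longer UCSC transcript of 594 bases (uc012fyu.1) includes the same 136 bases, from its base 336 to its base 471.

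Rmrp was the deepest of the 3 RNAs in both columns. The IP column held 40539 reads (95% Poisson interval 40145 to 40936), and the IgG column held 1026 (964 to 1091). That is 141 IP reads and 3.57 IgG reads per base of the interval. Rmrp held rank 10 of 673 by IP reads and rank 15 by IgG reads, so it stood near the top of the control as well. It made up 1.24% of all listed IP reads and 0.181% of all listed IgG reads.

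For Rpph1 the IP column held 2799 reads (95% Poisson interval 2696 to 2905), against 33 in the IgG column (22.7 to 46.3). Per base, these are 18.3 IP reads and 0.216 IgG reads. Its rank was 23 by IP reads and 124 by IgG reads, a far lower place in the control than in the IP. Rprl3 had 336 IP reads (301 to 374) and 1 IgG read (0.0253 to 5.57), or 2.47 IP reads per base. Its rank was 67 by IP reads and 516 by IgG reads.

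By IP reads per base of the interval, Rmrp stood 7.72 times above Rpph1, and Rpph1 7.40 times above Rprl3. This scale allows for the length of the intervals. They held all of Rmrp but 47.1% of Rpph1 and 57.4% of Rprl3, so it does not compare whole RNAs. All 3 intervals lay far above the median of the other listed intervals, which was 0.185 IP reads per base. By this measure Rmrp held rank 10, Rpph1 rank 17 and Rprl3 rank 41 of 673.

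The order of the ratios was the opposite of the order of the reads. IP reads divided by IgG reads gave 39.5 for Rmrp (95% interval 37.1 to 42.1), 84.8 for Rpph1 (60.3 to 123) and 336 for Rprl3 (59.9 to 13310). The ratio of Rpph1 was 2.15 times that of Rmrp (95% counting interval 1.51 to 3.14). The ratio of Rprl3 was 3.96 times that of Rpph1 (0.658 to 162) and 8.50 times that of Rmrp (1.51 to 337). These intervals describe the counting error of ratios on which the names were chosen, and they are wide for Rprl3, whose control held a single read. The order of Rprl3 and Rpph1 by ratio is thus not settled within counting error.

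For ranks, an IgG number under 3 was set to 3, so that intervals with 0, 1, 2 and 3 control reads stand on the same floor, and the ratio of Rprl3 becomes 112. On this scale all 3 intervals had at least 10 times more IP than IgG reads, as did 38.2% of the 673 listed intervals. Because the names were chosen on these ratios, their count is a description. The median ratio of the other 670 intervals was 7.93. Among all 673, Rprl3 held rank 3, Rpph1 rank 7 and Rmrp rank 39.

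**Figure D2:**
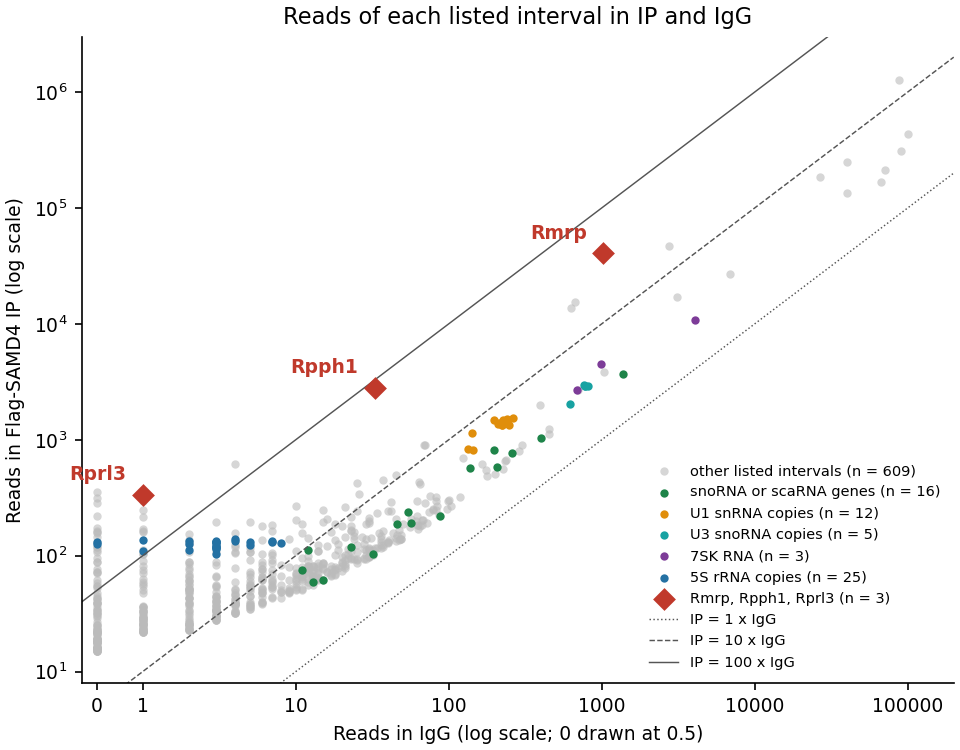
Reads in the Flag-SAMD4 IP against reads in the IgG for all 673 listed intervals, both on log scales, with 0 IgG reads drawn at 0.5 and lines at equal reads, 10 times and 100 times more IP reads. Rmrp (40539 and 1026 reads), Rpph1 (2799 and 33) and Rprl3 (336 and 1) are the red diamonds, and lie along the upper edge of the points at their IgG reads.

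The intervals ranked above Rmrp were shallow. Apart from Rpph1 and Rprl3, 36 intervals had a higher ratio than Rmrp with the floor of IgG reads used for ranks. They held at most 625 reads in IP and IgG together and at most 4 IgG reads. Of these, 21 carried names of histone genes and 13 were copies of the 5S ribosomal RNA gene. The remaining names were Hnrnpa0, which encodes an RNA-binding protein, and AC141881.6, an interval that lies between 5S copies on chromosome 8. With the same floor, the 5 other intervals above Rpph1 and the 2 above Rprl3 were all of histone genes. That floor holds down intervals with few IP reads and hardly any IgG reads. With 1 added to the IgG reads instead, the ratio of Rpph1 was 82.3. Hnrnpa0 (157 IP and 0 IgG reads) and the 5S copies n-R5s123 (131 and 0) and n-R5s133 (125 and 0) then lay above it. The ratio of Rmrp was 39.5 with 1 added. Above it then lay intervals of other genes with 0 IgG reads, among them Errfi1 (77 IP reads), which the paper studies as Mig6, and Hnrnpab (62). Some 5S copies with 3 IgG reads, such as n-R5s103 (125 IP reads), then lay below Rmrp. How many intervals moved each way was not counted. The ranks of Rmrp and Rpph1 among all listed intervals, and the kinds of gene above them, thus depend on the floor.

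Among intervals of similar depth, taken as those whose IP and IgG reads together lie within 2-fold of the interval in question, Rmrp and Rpph1 had the highest ratio. The comparison group of Rmrp was small. With 41565 reads, it had 2 intervals of similar depth, at ratios of 17.1 for an interval named mmu-mir-2134-4 and 3.89 for one named Atf2. Those intervals held 2754 and 6918 IgG reads against 1026 for Rmrp. Among all 10 intervals with at least as many reads as Rmrp the median ratio of the others was 4.37, and among the 15 with at least as many IgG reads Rmrp again held rank 1, with 17.1 as the next ratio.

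Rpph1, with 2832 reads, had 23 intervals of similar depth. Their ratios ran from 2.48 to 7.49 with a median of 3.89, so that the next ratio below the 84.8 of Rpph1 was that of a U1 interval with 1490 IP and 199 IgG reads (7.49, 95% interval 6.45 to 8.73). The control reads of the 23 intervals ran from 199 to 1387, and the 33 of Rpph1 lay below all of them. By IP reads per base Rpph1 held rank 2 of the 24, behind a 7SK interval with 19.1. Of the 23, 9 were intervals named U1, 5 were named U3, 3 were named Col1a1 and 2 were named 7SK. Among all 25 intervals with at least as many reads as Rpph1, the ratio closest to its own was that of Rmrp.

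Rprl3, with 337 reads, had 102 intervals of similar depth, with ratios from 2.52 to 155 and a median of 4.53. It held rank 3 of 103, behind Hist1h4d (621 IP and 4 IgG reads) and an interval of Hist2h2aa1 and Hist2h2aa2 (354 and 0), and directly above H2afx (314 and 0). These encode core histones or a variant of them. Of the 102 intervals, 27 carried names of histone genes. When intervals with histone, 5S or U1 names were left out, Rprl3 held rank 1 of 76. With 1 added to every IgG number in place of the floor of 3 it held rank 6 of 103. The place of Rprl3 among these intervals thus moves with how 0 and 1 control reads are treated. For Rmrp and Rpph1 this treatment could not change the rank, since the other intervals of similar depth held at least 199 IgG reads.

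**Figure D3:**
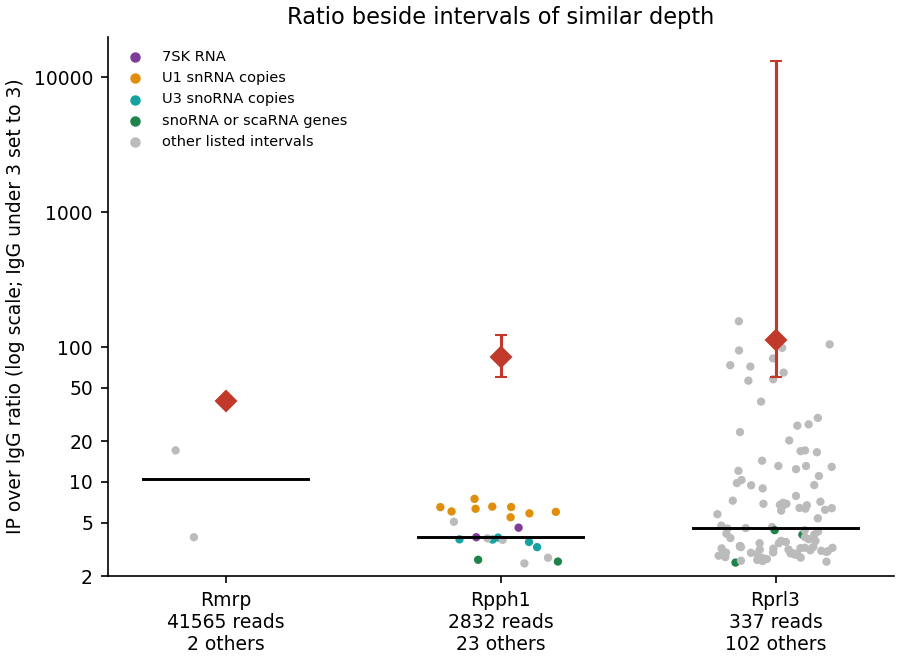
Ratio of IP to IgG reads (log scale, IgG under 3 set to 3) of Rmrp, Rpph1 and Rprl3 (red diamonds, with the 95% interval of the ratio as counted) beside the other intervals whose total reads are within 2-fold (points; black bars, their medians of 10.5, 3.89 and 4.53). Rmrp and Rpph1 lie above every other interval of similar depth, and Rprl3 lies among the highest of 102.

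Other non-coding RNAs of the table had lower ratios, apart from 5S ribosomal RNA. The 25 intervals of 5S copies had a median ratio of 39.7 (16.1 to 45.3), which is about that of Rmrp. This ribosomal RNA is likewise made by RNA polymerase III. Of the 25, 7 had fewer than 3 control reads, so that their ratios rest on the floor. With that floor and at most 138 IP reads, no 5S copy could reach the ratio of Rpph1 or Rprl3. As counted, copies with 136 and 109 IP reads against 1 IgG read lay above Rpph1, and 2 copies had 0 IgG reads. Summed over the 25 copies, 3139 IP and 81 IgG reads give 38.8. Another 7 intervals, named AC141881 with a suffix, lie between these copies with ratios from 22.7 to 45.3, and are not counted among the 25. The 12 intervals of U1, the small nuclear RNA that recognizes 5′ splice sites, had ratios from 5.47 to 8.14. The 3 intervals of 7SK, which holds the elongation factor P-TEFb inactive, had 2.64 to 4.58. The 5 intervals of U3, a snoRNA that takes part in the processing of ribosomal RNA, had 3.28 to 3.87. Copies of 5S, U1, U3 and 7SK resemble each other in sequence, and the sources used here do not say how reads that match several positions were treated, so the intervals of such a family do not stand for separate measurements. Whether reads were shared between Rpph1 and Rprl3 was not tested.

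Depth per base did not separate the RNAs in the way the ratio did. The 3 intervals of 7SK had 11.3 to 34.7 IP reads per base, which includes the 18.3 of Rpph1, at a ratio of at most 4.58. The U3 intervals, with 8.87 to 14.3, and the U1 intervals, with 4.63 to 10.96, lay below Rpph1, and the 5S intervals, with 0.616 to 1.17, below Rprl3. The 16 intervals named for other snoRNA genes or for scaRNA genes, most of whose products guide the modification of other RNAs, had ratios of 2.52 to 9.25 and at most 3.47 IP reads per base. Most of these also carry the name of the gene whose intron hosts the small RNA, so that reads of the host and of the small RNA cannot be told apart.

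**Figure D4:**
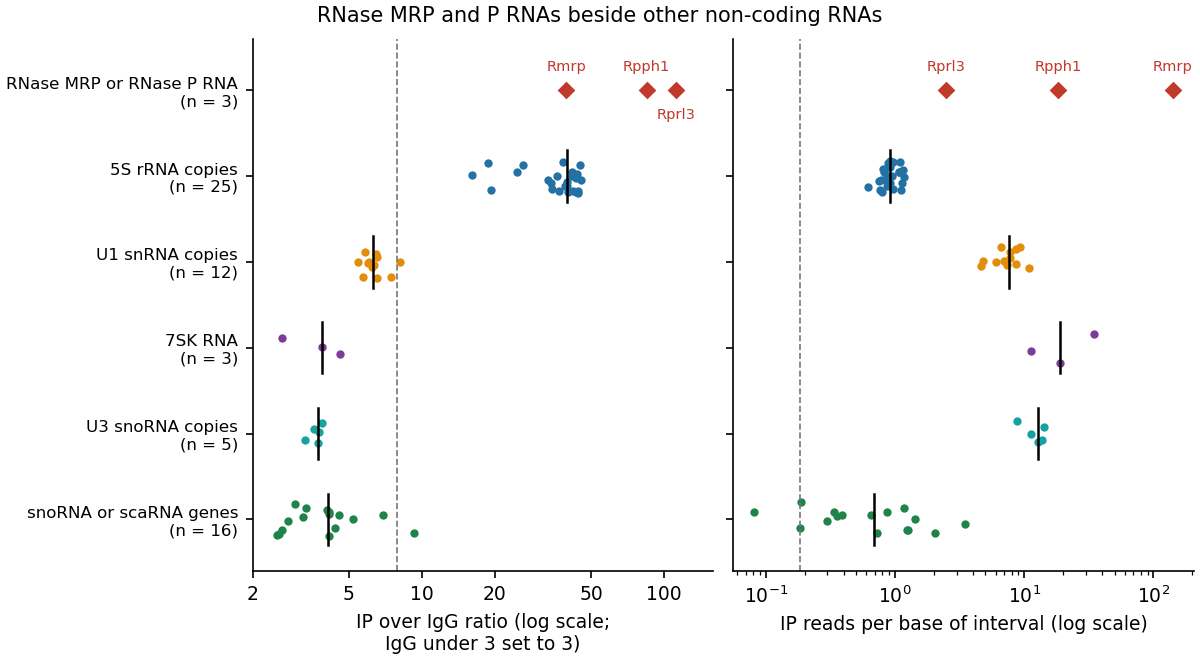
Ratio of IP to IgG reads (left; IgG under 3 set to 3) and IP reads per base (right), both on log scales, for intervals of the RNase MRP and P RNAs and of other non-coding RNAs (points, 1 for each interval; black bars, class medians; dashed lines, medians of the 670 other intervals, 7.93 and 0.185). Rmrp lies close to the 5S median of 39.7. Rpph1 and Rprl3 lie above every 5S, U1, 7SK, U3 and other snoRNA or scaRNA interval in the ratio drawn. The floor of 3 keeps the 5S intervals, with at most 138 IP reads, below them.

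Intervals of the protein partners were not part of the table. Of 11 genes for protein subunits of RNase MRP and RNase P (Pop1, Pop4, Pop5, Pop7, Rpp14, Rpp21, Rpp25, Rpp25l, Rpp30, Rpp38 and Rpp40), 0 were named at a listed interval. The RNase P RNA relatives Rprl1 and Rprl2 were also not named. Since the table lists selected intervals, this gives no level for any of them. The listed interval closest to Rmrp along the chromosome was 54.4 kb away, at Tln1, with 70 IP and 12 IgG reads (ratio 5.83). For Rpph1 and Rprl3 the closest listed interval was 3659 kb and 7413 kb away. Such distances were not computed for the other intervals, so they are no trait of these RNAs.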

How the data were processed

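The authors deposited a single table for the series. Per the labels, reads were aligned to mm9 with TopHat2 2.0.9. The sources used here do not name the interval caller, nor say whether the 2 libraries of a kind were added together, whether RNA with poly(A) tails was selected, or how reads that match several positions were treated. The deposited read numbers are counts of reads per interval, 1 for the IP and 1 for the IgG, with no normalization. The p-values, q-values and folds of the authors' own comparison were not used. The 16285 lines were reduced to 673 distinct intervals with 753 gene names. Starts were shifted by 1 base, so coordinates count from 1.

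Ratios carry 95% intervals converted from exact (Clopper-Pearson) bounds on the share of IP reads, ratios of ratios carry conditional exact intervals, and counts carry exact Poisson intervals (SciPy 1.17.1). On simulated counts with the totals of the 673 intervals, the intervals of ratios held the true fold in 96.6%, 96.9% and 97.9% of cases at folds of 4, 16 and 64. Those counts were drawn from the binomial model that the bounds assume. The simulation therefore checks the calculation only, and holds no spread between libraries and no selection for enrichment. No hypothesis test was run, because the table gives 1 number for each condition. The members, gene lists, depth limits and alternatives were chosen with earlier results of these data known. Named are the members, the other names at their intervals, the listed RNA and subunit names, and, at similar depth, the 3 highest ratios and those next to the member. U3, Hnrnpa0, the AC141881 intervals, Parp2 and the nearest listed intervals were named after their values were seen. RefSeq names come from GRCm38.p6, which matched all 3 members. Sequences of the members were not used here.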

Additional observations from a re-analysis of the deposited data

How the results depend on the processing

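With 1 added to the IgG reads, the ratio was 39.5 for Rmrp and 82.3 for Rpph1. That of Rprl3 was 112 with the floor of 3, 168 with 1 added and 336 as counted. The ranks of Rmrp and Rpph1 at similar depth were 1 under 6 alternatives: a 4-fold limit, reads per base, the 20 nearest intervals, 1 added to the IgG reads, the lower 95% bound, and leaving out histone, 5S and U1 names. Leaving names out cannot lower a rank of 1, so the last could move neither rank, and for Rmrp it left the same 3 intervals. Adding 1 could not move them either, as the other intervals within 2-fold held at least 199 IgG reads. Rprl3, at rank 3, moved to rank 6 with 1 added to the IgG reads, to rank 5 by the lower bound of the ratio, and to rank 1 without histone, 5S and U1 names. The cause was not tested beyond the construction of these settings. The number of intervals at or above 10-fold was 257, and at or above 20-fold it was 101. Over all 673 intervals, ranks by the lower bound, a setting added after the data were seen, were 16 for Rmrp, 5 for Rpph1 and 6 for Rprl3. No paired analysis was possible because the table holds 1 column for the IP and 1 for the IgG, with no library named, and for the same reason no library could be left out. Depth limits Rprl3 most, with 1 control read.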
